A study of Homo sapiens with 6 samples.

Results

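The genes described here are 32 genes of the hypoxia response and of its control by the hypoxia-inducible factors (HIF). They were taken by symbol from a fixed list, as probe sets with exactly 1 gene symbol in the platform annotation. Where a gene had more than 1 such probe set, the brightest on average over the 6 arrays was used. In all, 31 of the 32 genes had such a probe set, out of 18417 genes measured. CA9, a carbonic anhydrase, had none and is not described. MCF10A, the cell line on the arrays, is an established line of human breast epithelium that forms no tumours, used here as MCF10A/ErbB2. ErbB2 is a growth factor receptor with kinase activity. The tested cells were RB-deficient (3 arrays, tag miRB in the titles) and the comparison cells were RB-proficient (3 arrays, tag miNS). RB is the retinoblastoma protein, and the labels do not spell out the tags. Both groups had 7 days of 3-D growth with Matrigel, a basement membrane extract, in medium with horse serum, insulin, cholera toxin and hydrocortisone, and cells and matrix were collected together. The labels used here name no low-oxygen treatment and no oxygen level. Nothing in them tells whether the lines were clones or the replicates separate cultures. The p-values thus reflect the spread among these 6 samples alone, and that spread may be technical.

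HIF is a pair of proteins, an oxygen-sensitive alpha subunit (encoded by HIF1A or EPAS1) and a stable partner (encoded by ARNT). In oxygen, prolyl hydroxylases of the EGLN family mark the alpha subunit, VHL binds the marked protein, and a ubiquitin ligase has it destroyed. A further hydroxylase, encoded by HIF1AN, blocks the binding of coactivators. When oxygen is short the pair binds the core letters ACGTG or GCGTG near its targets and raises genes for glucose use, blood vessel growth, matrix folding and removal of mitochondria. Because oxygen acts mainly on the alpha subunit protein, the arrays report its transcript and not its activity.

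Promoter sequences are shown for 8 members that the results turn on, to let the core letters be read beside the values. The first 5 are members whose groups did not overlap. BNIP3 and ANKRD37 varied widely among the arrays labelled RB-deficient, and FAM162A varied little. Sequences are from RefSeq on GRCh38.p14, on the strand of the gene and upstream of its start. Each stretch was cut around its cores. For a gene with several starts, the start with the most cores upstream was chosen. HIF1A, for example, had a core at 1 of its 2 starts. Capitals mark the cores ACGTG and GCGTG on either strand, which read CACGT and CACGC when they lie on the opposite strand. CACGTG holds the core ACGTG on both strands at once.
EPAS1 (chr2:46297278-46297306, + strand): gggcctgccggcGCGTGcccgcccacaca
AK4 (chr1:65147395-65147476, + strand): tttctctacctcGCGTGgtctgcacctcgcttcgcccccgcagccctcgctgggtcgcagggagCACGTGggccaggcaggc
LOX (chr5:122078347-122078456, − strand): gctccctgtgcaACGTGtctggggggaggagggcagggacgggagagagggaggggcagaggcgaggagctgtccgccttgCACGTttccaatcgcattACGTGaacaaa
EGLN1 (chr1:231422288-231422312, − strand): gggccgtggtgtACGTGcagagcgc
HIF1A (chr14:61695297-61695325, + strand): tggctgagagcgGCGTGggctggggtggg
ANKRD37 (chr4:185396667-185396714, + strand): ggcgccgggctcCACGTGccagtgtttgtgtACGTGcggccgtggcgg
BNIP3 (chr10:131982011-131982078, − strand): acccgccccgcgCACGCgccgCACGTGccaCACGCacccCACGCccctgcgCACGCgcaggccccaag
FAM162A (chr3:122384078-122384162, + strand): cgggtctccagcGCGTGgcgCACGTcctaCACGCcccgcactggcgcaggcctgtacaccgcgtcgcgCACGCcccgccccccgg

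Promoter windows, from 250 bases before to 50 after a gene's start, were used for 27 of the 32 genes. None was matched for VEGFA, VHL and HILPDA. BNIP3L and NDRG1 lie on a chromosome whose member windows were left out. The count over all windows had no such filter. A core was found in at least 1 window of 23 of them, and 4 (ARNT, EGLN3, HIF1AN and P4HA2) had none. Counted by window, since some genes have several starts, 32 of 38 member windows (84.2%) held ACGTG or GCGTG, against 48.4% of all 35116 windows of this length. The core ACGTG alone was in 52.6% of the member windows and in 21.4% of all windows. BNIP3 held 6 cores in its window and EPAS1 and EGLN1 held 1. A match describes the letters only. The member shares belong to a list chosen for the hypoxia response and say nothing about these arrays. CA9 is counted among the windows, though it was not measured. ARNT and P4HA2, which have no core in these windows, and AK4 and LOX, which have several, were all lower in the arrays labelled RB-deficient without overlap between the groups.

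Values are the authors' intensities, scaled here to a common array median, set to at least 1 and written as log2, so that 0 is the floor. Differences are log2 values of RB-deficient minus RB-proficient arrays, with n = 3 per group. The number of arrays limits the precision. RB1, the gene that encodes RB, gave 3.45, 5.09 and 6.04 in the arrays labelled RB-deficient, against 7.01, 5.77 and 7.65 in the RB-proficient arrays. The arrays labelled RB-deficient 1 and 2 lay below every RB-proficient array but not that labelled RB-deficient 3. The RB1 difference was −1.95 (SE 0.76, limma's adjusted p 0.302). Over all genes the array labelled RB-deficient 3 also correlated more closely with the RB-proficient arrays (Pearson's r 0.83 to 0.88) than with its own group (0.71 and 0.75). Every direction given here therefore rests on the labels. Of the epithelial markers looked for, 10 were measured. Of these, 9 (90%, against 58.6% of all genes) had a lower mean in the RB-deficient group, with a median difference of −1.33. Without overlap 5 were lower (50%, against 15.3% of all genes) and 1 was higher (7.12% of all genes). The higher one, EPCAM, gave 10.39, 10.35 and 10.08 in the arrays labelled RB-deficient, against 10.06, 9.99 and 10.06. KRT5 and KRT14, basal keratins, spanned 6.38 to 9.58 and 7.55 to 8.80 in the arrays labelled RB-deficient. Their RB-proficient ranges were 9.31 to 11.65 and 8.77 to 8.999. TP63, KRT17 and KRT6A had no single-symbol probe set. Summed intensities of the epithelial markers were 3159 to 3723, against 4789 to 7050 in the RB-proficient arrays. The fibroblast markers (8 measured) summed to 160 to 293, against 169 to 225. The endothelial markers (6 measured) summed to 374 to 479, against 535 to 661. The leukocyte markers (5 measured) summed to 198 to 240, against 310 to 444. CDH5 and CD68, the brightest of each list, weigh most in these sums. By gene, 3 endothelial markers were lower and 3 higher, and 3 leukocyte markers were lower and 2 higher. The median differences of these lists were −0.18 and −0.19, against −0.21 for all genes. Without overlap, CDH5, PECAM1 and CD68 were lower and CLDN5 and PTPRC higher. At the floor were 2 fibroblast markers, COL3A1 and THY1, both in the array labelled RB-deficient 1. Of 7 reference genes measured 5 were lower, with a median difference of −0.77. ACTB and GAPDH were the lowest of them at −1.92 (SE 0.50) and −1.23 (SE 0.47), and HPRT1 was the highest at 0.24 (SE 0.59). GAPDH is also counted in the metabolic list given further on. At the floor were 4.71% of all genes in the array labelled RB-deficient 1 and 0.326% to 1.62% in the remaining 5 arrays. The part of these markers in the results below was not tested, and in bulk RNA fewer cells of a type and less RNA per cell cannot be told apart.

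Hypoxia genes and HIF regulators were on balance lower in the arrays labelled RB-deficient, but no member passed an adjusted p of 0.05. Of 31 members 23 had a lower mean there (74.2%), against 58.6% of all genes. The median difference was −0.70, against −0.21 for all genes, which leaves −0.49 between them. By limma with Benjamini-Hochberg adjustment over all genes 0 of 31 members passed, where 0.00543% of all genes did. The smallest adjusted p among the members was 0.226, for EPAS1. At an unadjusted p under 0.05, 5 members were lower (16.1%, against 10.8% of all genes) and 0 were higher (2.85% of all genes). In either direction the 5 members (16.1%) stood against 13.7% of all genes. Without RB-proficient array 3 it was 1 member (3.23%, against 6.8% of all genes), a share below that of all genes. Without the array labelled RB-deficient 3 it was 8 members (25.8%, against 21.1% of all genes). Separation without any overlap was seen for 7 members that were lower (22.6%, against 15.3% of all genes) and for 1 that was higher (7.12% of all genes). Without the array labelled RB-deficient 3 the member median was −0.59, and the differences were −1.86 for EPAS1, −2.02 for P4HA2, −1.43 for BNIP3L, −2.16 for AK4, −1.84 for ARNT and 1.16 for HIF1A. More than a 2-fold lower mean was found for 10 members (32.3%, against 21.6% of all genes), and more than a 2-fold higher mean for 1, VEGFA (6.55% of all genes).

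**Figure D1:**
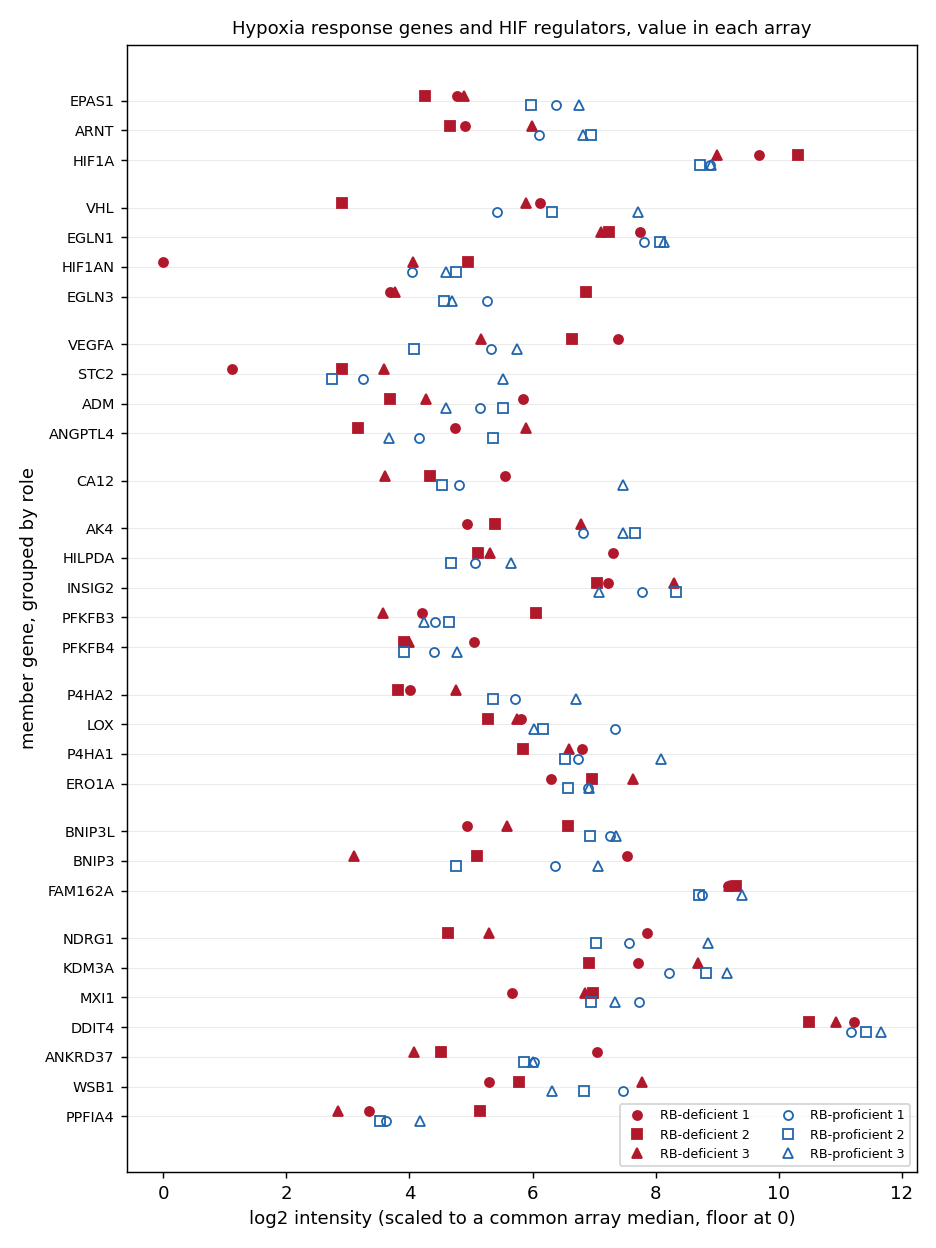
Log2 intensity of each of the 31 measured members in each array (x axis, floor at 0), with members grouped by role down the page. Filled red points are the arrays labelled RB-deficient and open blue points the RB-proficient arrays, and the marker shape gives the replicate number. EPAS1, ARNT, AK4, P4HA2 and BNIP3L lie to the left in all 3 RB-deficient arrays, and HIF1A lies to the right.

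The HIF subunits differed in direction. EPAS1 encodes the HIF-2 alpha subunit and was read by probe set 8041781. The arrays labelled RB-deficient 1 to 3 read 4.77, 4.25 and 4.88, against 6.39, 5.97 and 6.76 in RB-proficient arrays 1 to 3. The groups were separated by more than 1 log2 unit between the nearest arrays. The difference was −1.74 (SE 0.49, 95% interval −2.84 to −0.63), or 3.34-fold lower (limma's adjusted p 0.226). Over the 17 alternative settings the EPAS1 difference ran from −1.94 to −1.27 and the adjusted p from 0.0725 to 0.709.

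ARNT, the partner subunit, gave 4.91, 4.66 and 5.997 in the arrays labelled RB-deficient, against 6.10, 6.95 and 6.81 in the RB-proficient arrays. The groups did not overlap, but the array labelled RB-deficient 3 came close to RB-proficient array 1. The difference was −1.43 (SE 0.55, adjusted p 0.301 in limma's test), and −0.63 without the arrays labelled RB-deficient 1 and 2.

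HIF1A encodes the HIF-1 alpha subunit and was the single member with every RB-deficient value above every RB-proficient value. It gave 9.68, 10.31 and 8.99 in the arrays labelled RB-deficient, against 8.88, 8.72 and 8.89 in the RB-proficient arrays. The RB-proficient arrays lay close together (SD 0.10) and those labelled RB-deficient did not (SD 0.66). The array labelled RB-deficient 3 was only just above the RB-proficient ones. The difference was 0.83 (SE 0.52, 95% interval −0.33 to 1.99, adjusted p 0.501 in limma's test), 0.50 without the array labelled RB-deficient 2 and 0.16 without both RB-deficient 1 and 2. Taken within the same array, the log2 value of HIF1A minus that of EPAS1 came to 4.91, 6.06 and 4.11 in RB-deficient arrays 1 to 3, against 2.498, 2.75 and 2.13 in the RB-proficient arrays. This lies 2.57 higher in the RB-deficient group, and scaling between arrays cannot change it. This value was chosen after the values were seen and was not tested. It describes an unequal difference of these transcripts in these arrays, where neither gene passed the threshold. Which of them moved cannot be read from it.

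Genes that destroy or inhibit HIF were lower on average for all 4 members (58.6% of all genes were lower). Only EGLN1 kept the groups apart (25%, against 15.3% of all genes lower without overlap). EGLN1, the main prolyl hydroxylase that marks HIF alpha subunits, gave 7.74, 7.24 and 7.11 in the arrays labelled RB-deficient, against 7.81, 8.07 and 8.14 in the RB-proficient arrays. The gap between the nearest arrays was small. The difference was −0.64 (SE 0.47, adjusted p 0.571 in limma's test). VHL, the recognition subunit of the ubiquitin ligase, gave 6.11, 2.91 and 5.90, against 5.42, 6.31 and 7.71. Its low mean came from the array labelled RB-deficient 2, and without that array the difference of −1.51 was −0.47 (−0.89 without RB-proficient array 3). HIF1AN, the asparagine hydroxylase, gave 0, 4.95 and 4.06, against 4.04, 4.76 and 4.59. Only the array labelled RB-deficient 1 was low, at the floor. Without it the difference was 0.04 in place of −1.46, and with a floor of 16 it was −0.13. EGLN3, a prolyl hydroxylase that is itself a HIF target, gave 3.69, 6.86 and 3.77, against 5.26, 4.56 and 4.70. Here the array labelled RB-deficient 2 was the highest of all 6 and the remaining 2 of its group were the lowest. The EGLN3 difference was −0.06 (SE 0.83), and its sign turned in 7 of 17 settings.

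**Figure D2:**
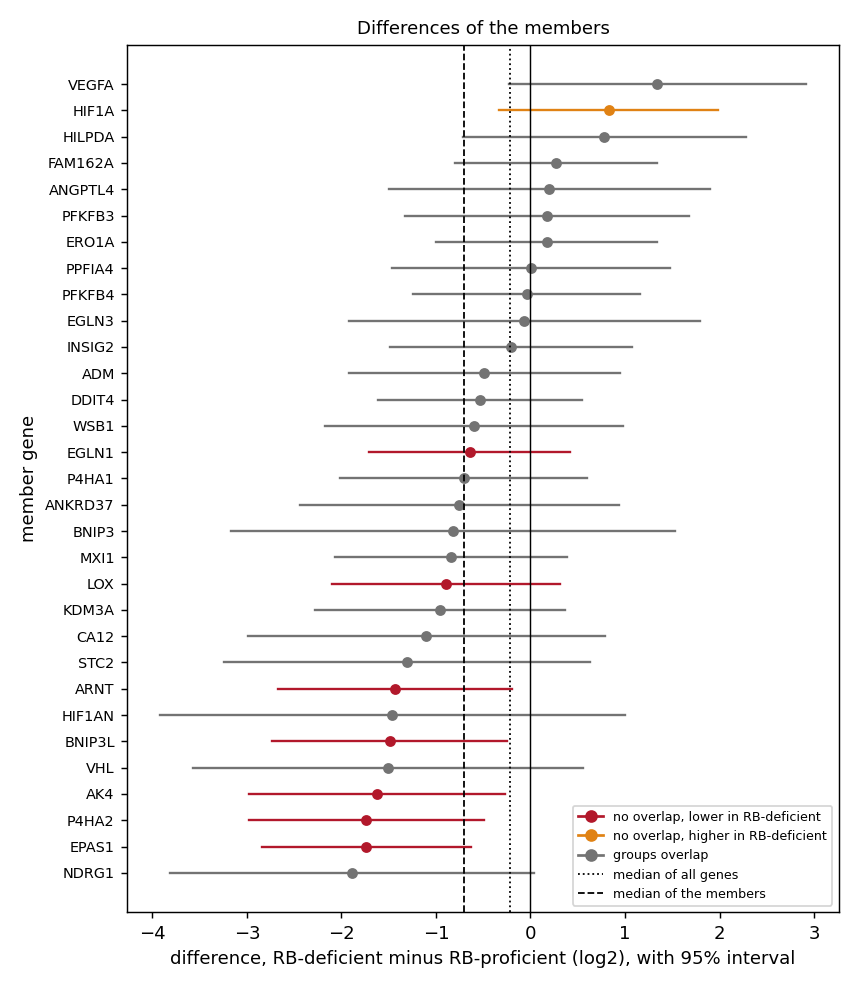
Difference of each member between the groups (x axis, log2, RB-deficient minus RB-proficient) with its 95% interval from limma, sorted by size. Red marks the 7 members that were lower without overlap and orange marks HIF1A, the only one higher without overlap. The dashed line is the median of the members (−0.70) and the dotted line that of all genes (−0.21). The intervals of EPAS1, P4HA2, AK4, BNIP3L and ARNT end below 0.

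Enzymes of collagen folding and cross-linking were lower for 3 of 4 members (75%, against 58.6% of all genes). Of the 4, 2 were lower without overlap (50%, against 15.3% of all genes). P4HA2, a catalytic subunit of the collagen prolyl hydroxylase, gave 4.01, 3.82 and 4.75 in the arrays labelled RB-deficient, against 5.71, 5.36 and 6.71 in the RB-proficient arrays. The groups were clearly apart. The difference was −1.74 (SE 0.55, 3.33-fold lower, adjusted p 0.252 in limma's test). LOX, the lysyl oxidase that cross-links collagen, gave 5.82, 5.27 and 5.75, against 7.33, 6.17 and 6.02, a narrow gap between the nearest arrays. Its difference was −0.89 (SE 0.54, adjusted p 0.486 in limma's test), and −0.48 without RB-proficient array 1. P4HA1, the sister subunit of P4HA2, had overlapping groups and a difference of −0.70 (SE 0.58). Its highest value, 8.08, was in RB-proficient array 3, and without that array the difference was −0.22. ERO1A, which supplies disulfide bonds in the endoplasmic reticulum, differed by 0.17 (SE 0.52).

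Among genes of mitochondria and cell death, the related BNIP3L and BNIP3 had different patterns over the arrays. BNIP3L, a receptor for the removal of mitochondria by autophagy, gave 4.93, 6.57 and 5.59 in the arrays labelled RB-deficient, against 7.26, 6.94 and 7.35 in the RB-proficient arrays. All RB-deficient values were below the RB-proficient ones. The difference was −1.49 (SE 0.55, adjusted p 0.290 in limma's test). BNIP3, a receptor of the same kind, gave 7.53, 5.09 and 3.10, against 6.36, 4.76 and 7.07. The array labelled RB-deficient 1 was the highest of the 6 and the array labelled RB-deficient 3 the lowest, so the groups overlapped throughout. Its difference of −0.82 (SE 1.04) was 0.25 without the array labelled RB-deficient 3. FAM162A, a mitochondrial protein induced in hypoxia, gave 9.18, 9.30 and 9.20, against 8.75, 8.71 and 9.40, with a difference of 0.27 (SE 0.47).

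Genes of metabolism and lipid storage had a median difference of −0.04 over 5 members, against −0.21 for all genes. AK4 alone kept the groups apart (20%, against 15.3% of all genes lower without overlap). AK4 is a mitochondrial adenylate kinase and was the only member with more than 1 single-symbol probe set. Its brighter probe set 7962183 gave 4.93, 5.38 and 6.78 in the arrays labelled RB-deficient, against 6.81, 7.67 and 7.47 in the RB-proficient arrays. The array labelled RB-deficient 3 lay next to RB-proficient array 1. The difference was −1.62 (SE 0.60, 3.07-fold lower, adjusted p 0.290 in limma's test), and −0.53 without the arrays labelled RB-deficient 1 and 2. The dimmer probe set 7902038 gave 2.85, 4.13 and 2.37, against 4.15, 5.11 and 5.19. It differed by −1.70, with a very narrow gap between the nearest arrays. Where each probe set lies in the genome was not examined. HILPDA, which protects lipid droplets from breakdown, gave 7.30, 5.11 and 5.30, against 5.06, 4.67 and 5.65. It was high in the array labelled RB-deficient 1 alone, and differed by 0.78 (SE 0.67), or by 0.081 without that array. PFKFB3 and PFKFB4, which make the activator of phosphofructokinase, differed by 0.18 (SE 0.67) and −0.04 (SE 0.54). INSIG2, which retains the sterol sensor in the endoplasmic reticulum, differed by −0.21 (SE 0.57).

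Secreted factors had no shared direction. VEGFA, the main growth factor of blood vessels, gave 7.39, 6.64 and 5.16 in the arrays labelled RB-deficient, against 5.33, 4.08 and 5.75 in the RB-proficient arrays. The arrays labelled RB-deficient 1 and 2 were above all RB-proficient arrays and the array labelled RB-deficient 3 was not. The difference was 1.34 (SE 0.70, 95% interval −0.23 to 2.92, adjusted p 0.428 in limma's test), the highest of the 31. It was 0.85 without the array labelled RB-deficient 1 and 0.10 without the arrays labelled RB-deficient 1 and 2. STC2, a stanniocalcin hormone, differed by −1.31 (SE 0.86), by −0.46 without RB-proficient array 3 and by −0.60 without the array labelled RB-deficient 1. ADM, the vasodilator peptide adrenomedullin, differed by −0.49 (SE 0.64), and by −1.11 and −0.033 without the arrays labelled RB-deficient 1 and 2 in turn. ANGPTL4, an inhibitor of lipoprotein lipase, differed by 0.20 (SE 0.76). Its sign turned without RB-proficient array 3 (−0.16) and without the array labelled RB-deficient 3 (−0.45). CA12, a membrane carbonic anhydrase that controls pH outside the cell, gave 5.56, 4.33 and 3.60, against 4.80, 4.54 and 7.46. Its difference of −1.10 (SE 0.84) rested on RB-proficient array 3, and was −0.17 without that array.

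Of 7 members of signalling, chromatin and other roles, 6 had lower means (85.7%, against 58.6% of all genes). None kept the groups apart, where 15.3% of all genes were lower and 7.12% higher without overlap. NDRG1, a stress-induced gene used as a marker of hypoxia, gave 7.85, 4.63 and 5.29 in the arrays labelled RB-deficient, against 7.56, 7.03 and 8.86 in the RB-proficient arrays. The array labelled RB-deficient 1 lay among the RB-proficient arrays while the remaining 2 were far below them. The difference of −1.89 (SE 0.86, adjusted p 0.371 in limma's test) was the lowest of the 31. With single arrays labelled RB-deficient left out it ran from −2.85 (without 1) to −1.24 (without 2). KDM3A, a histone H3 lysine demethylase, gave 7.72, 6.92 and 8.69, against 8.22, 8.81 and 9.16, and differed by −0.96 (SE 0.59), or by −0.53 without the array labelled RB-deficient 2. Its groups overlapped through the array labelled RB-deficient 3. ANKRD37, an ankyrin repeat protein and HIF target, gave 7.05, 4.51 and 4.07, against 6.03, 5.86 and 6.003. Its RB-proficient values were close together, with the array labelled RB-deficient 1 above and the remaining 2 below them (difference −0.75, SE 0.75, and −1.67 to −0.18 with single arrays labelled RB-deficient left out). MXI1, an antagonist of MYC, differed by −0.84 (SE 0.55), and by −0.42 without the array labelled RB-deficient 1. DDIT4, an inhibitor of mTORC1, differed by −0.54 (SE 0.48), and by −0.34 without the array labelled RB-deficient 2. WSB1, a SOCS-box protein, differed by −0.59 (SE 0.70), with a range of −1.34 to −0.098 when each array was omitted in turn. PPFIA4, a liprin, differed by 0.00 (SE 0.66).

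**Figure D3:**
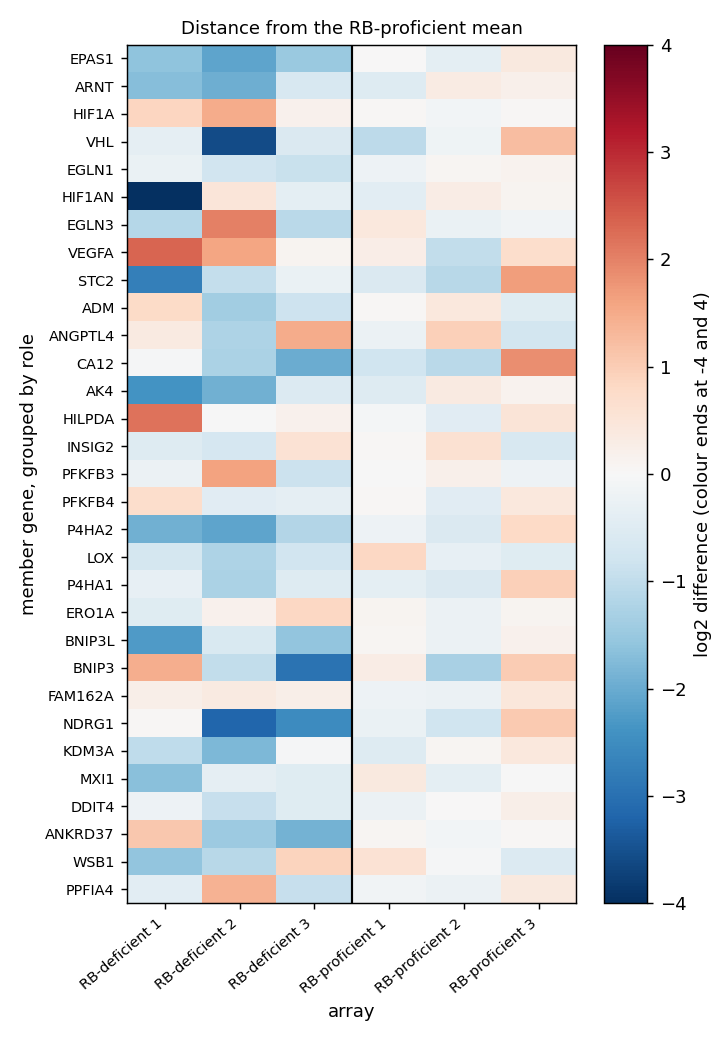
Distance of each member from its RB-proficient mean in each of the 6 arrays (columns, RB-deficient left of the line, RB-proficient right), with members as rows grouped by role and colour on a log2 scale. EPAS1, P4HA2 and BNIP3L are blue in all 3 arrays labelled RB-deficient. BNIP3, ANKRD37, HILPDA and ADM are red in the array labelled RB-deficient 1 and blue or pale in the remaining 2.

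The members did not have a common pattern among the arrays labelled RB-deficient. In RB-deficient arrays 1, 2 and 3 their median distance from the RB-proficient mean came to −0.37, −0.94 and −0.53, where all genes had −0.14, −0.37 and −0.14. In these arrays 16, 18 and 17 of the 31 members lay below all RB-proficient values, and 7, 7 and 4 lay above all of them. For all genes the shares were 42.1%, 48.0% and 37.6% below, and 35.2%, 30.4% and 25.5% above. The SD of a member had a median of 0.97 in the arrays labelled RB-deficient and 0.46 in the RB-proficient arrays. It was larger in the RB-deficient group for 24 of 31 members (77.4%, against 81% of all genes). Over all genes the median SDs were 0.84 and 0.40, so the members shared the wider spread of all genes. As a description across the 31 members, which are not independent, Pearson's r was 0.64 to 0.73 among the arrays labelled RB-deficient. It was 0.83 to 0.93 among the RB-proficient arrays. Over all genes these ranges were 0.67 to 0.75 and 0.90 to 0.92, so the lower agreement among RB-deficient arrays was not particular to the members. Across the members, the array labelled RB-deficient 3 had r of 0.75 to 0.91 with the RB-proficient arrays, against 0.67 and 0.73 with its own group.

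RB-proficient array 3 also stood apart among its group for these genes. It held the highest of the 3 RB-proficient values for 19 of 31 members (61.3%), where it did so for 44.3% of all genes. RB-proficient array 2 held the lowest for 18 members (58.1%, against 41.1% of all genes). CA12, STC2, P4HA1, P4HA2, NDRG1 and VHL were each highest in RB-proficient array 3 within that group. Without it the member median was −0.53 in place of −0.70.

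Other genes of oxygen sensing and HIF turnover were lower for 16 of 24 measured (66.7%, against 58.6% of all genes). The median difference was −0.49, against −0.21 for all genes. None passed adjusted over all genes. At an unadjusted p under 0.05, 3 were lower (12.5%, against 10.8% of all genes) and 0 higher (2.85% of all genes), and 6 were lower without overlap (25%, against 15.3% of all genes). AJUBA, a LIM-domain scaffold, differed by −2.41 (SE 0.74), P4HTM, a transmembrane prolyl hydroxylase, by −1.69 (SE 0.74), and CREBBP, a coactivator of HIF, by −1.15 (SE 0.50). P4HTM was dim, at 0.59, 2.84 and 3.48 in the arrays labelled RB-deficient, against 4.26, 4.12 and 3.60. The array labelled RB-deficient 1 was far the lowest of these, and that labelled RB-deficient 3 lay just below RB-proficient array 3. HIF3A, a further alpha subunit, differed by 0.66 (SE 0.51), and ARNT2, a further partner, by −0.71 (SE 0.50). EGLN2, the remaining hydroxylase of the family, had no single-symbol probe set. Of the VHL ligase, CUL2 differed by −0.59 (SE 0.55), and ELOB, ELOC and RBX1 by 0.22 (SE 0.56), 0.46 (SE 0.55) and 0.63 (SE 0.53).

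Hypoxia-induced metabolic genes outside the 32, mostly of glycolysis, were lower for 23 of 25 measured (92%, against 58.6% of all genes). The median difference was −1.09, against −0.21 for all genes. None passed adjusted over all genes. At an unadjusted p under 0.05, 11 were lower (44%, against 10.8% of all genes) and 0 higher (2.85% of all genes), and 12 were lower without overlap (48%, against 15.3% of all genes). TPI1 (triosephosphate isomerase) and PKM (pyruvate kinase) had the smallest p of the list and differed by −3.07 (SE 0.49) and −2.91 (SE 0.51), TPI1 by the brighter of its 2 probe sets. SLC2A1, the glucose transporter GLUT1, gave 4.97, 4.64 and 5.88 in the arrays labelled RB-deficient, against 7.51, 7.09 and 7.54 in the RB-proficient arrays. LDHA, lactate dehydrogenase and a standard HIF target, gave 11.15, 10.72 and 10.42, against 10.91, 10.77 and 11.57, so that its groups overlapped (difference −0.32, SE 0.50). PGK1, phosphoglycerate kinase, differed by −0.93 (SE 0.54). SLC2A3, the glucose transporter GLUT3, was chosen after its values were seen: it gave 7.79, 7.13 and 6.99, against 6.72, 6.48 and 6.42, higher in every array labelled RB-deficient (difference 0.76, SE 0.48).

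The remaining list, of other hypoxia-induced genes, lay near the level of all genes. Of 45 measured 29 were lower (64.4%, against 58.6% of all genes), and the median difference was −0.23. At an unadjusted p under 0.05, 6 were lower (13.3%, against 10.8% of all genes) and 0 higher (2.85% of all genes), and 7 were lower without overlap (15.6%, against 15.3% of all genes). PLOD1, a lysyl hydroxylase of collagen, differed by −2.55 (SE 0.49). KDM4C and KDM2A, histone demethylases, differed by −2.41 (SE 0.79) and −1.59 (SE 0.50).

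**Figure D4:**
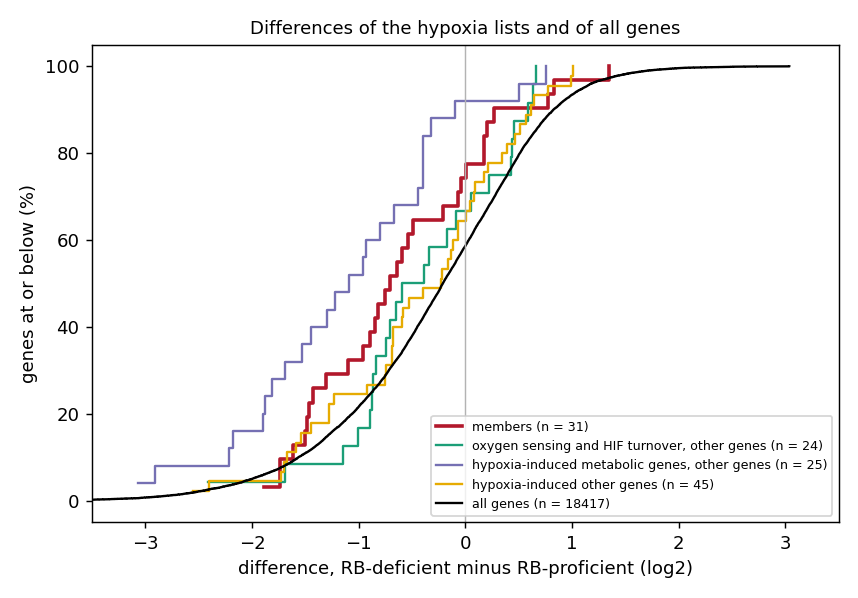
Cumulative share of genes (y axis, percent) at or below each difference (x axis, log2, RB-deficient minus RB-proficient) for the 31 members, the 3 other hypoxia lists and all 18417 genes. The metabolic list lies farthest to the left (median −1.09), the members lie between it and all genes (median −0.70), and the list of other hypoxia-induced genes runs near all genes (median −0.23).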

How the data were processed

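RNA was extracted with RNA-STAT-60 and amplified by WT-Ovation Pico, per the labels' protocols, for 1 biotin-labelled sample an array. Affymetrix Expression Console 1.1 is named in the submitters' processing notes. How probes were summarised or normalized is not given in the sources used here. Intensities on a linear scale were deposited, and column medians ran from 21.37 to 28.05. Each array was scaled to the median of these, given a floor of 1 and put on the log2 scale.

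The platform annotation gave 1 gene symbol to 19460 of 33297 probe sets and several to 1754, and did not list 12083. The 18417 genes went into a two-sided limma fit (version 3.58.1, R 4.3.3, lmFit then eBayes, no covariates), with Benjamini-Hochberg adjustment over all genes at a threshold of 0.05. The fit was tested on simulated data. Members and lists were chosen with earlier results of these data known. The members given array by array are the 10 with the smallest p, the HIF subunits and regulators and VEGFA, and some shown for their pattern after their values were seen. Up to 3 genes per other list follow the smallest p, beside textbook genes. Alternatives were quantile normalization, centring, a floor or an offset of 16, a filter on the dimmest 25% of genes, the mean of probe sets, moderation with trend and robust, weights per array, a block for the replicate number, and left-out arrays. A fit with no scaling was added once the data had been seen.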

Additional observations from a re-analysis of the deposited data

How the results depend on the processing

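In all 17 alternative settings 0 members passed an adjusted p of 0.05, and the member median stayed below 0, from −0.80 to −0.46, and below that of all genes. With single arrays left out it ran from −0.80 to −0.53, and the count of members passed was 0. Over all genes the count that passed was 1. It was 0 with quantile normalization, without the dimmest 25% of genes and without the arrays labelled RB-deficient 1 and 2, 58 with the floor of 16, 193 with the offset of 16, 61 with trend and robust, and 0 to 4 with single arrays left out. Members at an unadjusted p under 0.05 in either direction numbered 5 (16.1%, against 13.7% of all genes), 9 with the offset of 16 (29%, against 16.2%), 8 with trend and robust (25.8%, against 15.2%) and 6 with the replicate block (19.4%, against 13.2%). Quantile normalization and centring gave a median of all genes of −0.092 and −0.077, in place of −0.21, and the member median differed from it by −0.46 and −0.49. Same-numbered arrays did not deviate together (correlations of −0.12, 0.07 and −0.11), and with the replicate block 0 members and 1 gene of all passed. Over the recomputed member differences 494 kept their sign and 30 turned, in genes with small or array-bound differences. With quantile normalization EGLN3 gave 0.062 and INSIG2 0.0098, with centring EGLN3 gave 0.070 and PFKFB4 0.093, and EGLN3 gave 0.11 with the floor and 0.11 with the offset of 16. With array weights PFKFB3 gave −0.030 and PPFIA4 −0.10, and without scaling PPFIA4 gave −0.041. Without the arrays labelled RB-deficient 1 and 2 INSIG2 gave 0.57, PFKFB3 −0.87, PPFIA4 −0.93 and WSB1 0.90. With single arrays left out the ranges were −1.11 to 0.48 for EGLN3, −0.59 to 0.092 for INSIG2, −0.41 to 0.17 for PFKFB4, −0.55 to 0.70 for PFKFB3, −0.68 to 0.47 for PPFIA4, −2.43 to 0.039 for HIF1AN, −0.45 to 0.92 for ANGPTL4, −1.97 to 0.25 for BNIP3 and −0.16 to 0.50 for ERO1A. The causes were not tested. Detection over background is unknown, which limits dim members such as STC2 and HIF1AN. HIF1AN was at the floor in the array labelled RB-deficient 1. STC2 was at the floor in no array, and differed by −0.51 with the floor of 16 in place of −1.31.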

Other observations

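Among other hypoxia-induced genes, STC1, a stanniocalcin hormone, gave 5.40, 3.28 and 3.4998 in the arrays labelled RB-deficient, against 3.71, 4.11 and 8.20 in the RB-proficient arrays. TMEM45A, a transmembrane protein, gave 2.45, 2.40 and 2.30, against 2.26, 0.74 and 6.17. Each was highest in RB-proficient array 3, as was CA12. They were picked with their values in view.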
